A study of Mus musculus with 8 samples.

Results

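Long RNAs that stay in the nucleus or that carry small nucleolar RNAs in their introns were examined as a check on nuclear against cytoplasmic RNA content. The 9 listed genes were Malat1, Neat1, Kcnq1ot1, Gas5, Snhg1, Snhg3, Snhg5, Snhg8 and Snhg12. A gene was taken when its symbol had a row in the deposited expression table, which gave 4 of the 9 listed genes among 18770 genes. These 4 were the nuclear long RNAs Malat1, Neat1 and Kcnq1ot1 and the snoRNA host Snhg12. Gas5, Snhg1, Snhg3, Snhg5 and Snhg8 were not analysed here.

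The libraries came from dorsal skin of wildtype C57BL/6 male mice (C57BL/6J in the methods of the study) aged 7 to 8 weeks, 4 treated with Alpinetin (AP) and 4 with vehicle (VC). AP, a plant flavonoid tested for hair regrowth, was put on depilated skin once a day, 20 µl at 3 mg/ml dissolved in 65% ethanol, while the VC mice got the solvent only. Skin was taken at D4 after depilation, the interfollicular epidermis was removed, and messenger RNA was enriched from total RNA with oligo-dT beads, which capture RNAs that end in or contain runs of A. Libraries are numbered here as in the deposited table, and a number does not point to a particular mouse.

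Long nuclear RNAs are made by RNA polymerase II like messenger RNAs but are retained at the site of transcription or in nuclear bodies, so their share of the reads moves when nuclei give more or less of the RNA in a sample. Malat1 collects in nuclear speckles beside splicing factors, Neat1 is the scaffold of paraspeckles, and Kcnq1ot1 coats an imprinted chromosome domain from the paternal allele. snoRNA hosts are transcribed for the small nucleolar RNAs in their introns, which guide chemical changes of ribosomal RNA, and their spliced remnant often reaches the cytoplasm and is broken down during translation by nonsense-mediated decay.

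Sequencing gave 6454563 to 7264151 reads per VC library and 8507783 to 11190113 per AP library on the listed genes. Reads from the 13 mitochondrially encoded genes made up 54.3%, 44.9%, 42.1% and 52.3% of VC libraries 1 to 4. In AP libraries 1 to 4 they made up 11.1%, 7.85%, 5.32% and 10.3%. The groups did not overlap in this share. Without those genes, 3080758 to 3762217 reads were left per VC library and 7561598 to 10594787 per AP library, so the precision of low genes was poorer in VC. Values below are normalized counts, which are reads divided by 1 size factor per library, unless another scale is named. The part of the mitochondrial share in any difference below was not tested.

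Of the 4 genes, Neat1, Kcnq1ot1 and Snhg12 were lower in AP skin than in VC skin and Malat1 was not different beyond its spread (limma, Benjamini-Hochberg adjusted p under 0.05 over all 15964 genes fitted). Among all genes fitted, 4% were called lower in AP and 6.33% higher. All AP libraries lay below all VC libraries for the same 3 genes, a separation seen for 8.91% of all genes fitted, and the opposite separation was seen for none of the 4, against 10.3% of all genes. These directions are relative to the median gene. Scaling by total reads, mitochondrial reads included, moved the middle of all log2 fold changes from 0.06 to 0.90, and under it 8657 of 15964 genes were called higher and 70 lower, so counts of genes called higher with total reads below are to be read against that share. None of the 4 genes was called under it. Relative to the median gene, the log2 differences under total reads were -1.14 for Snhg12, -0.98 for Neat1, -1.38 for Kcnq1ot1 and -0.10 for Malat1. In bulk skin, fewer cells of a type and less RNA per cell cannot be told apart.

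**Figure D1:**
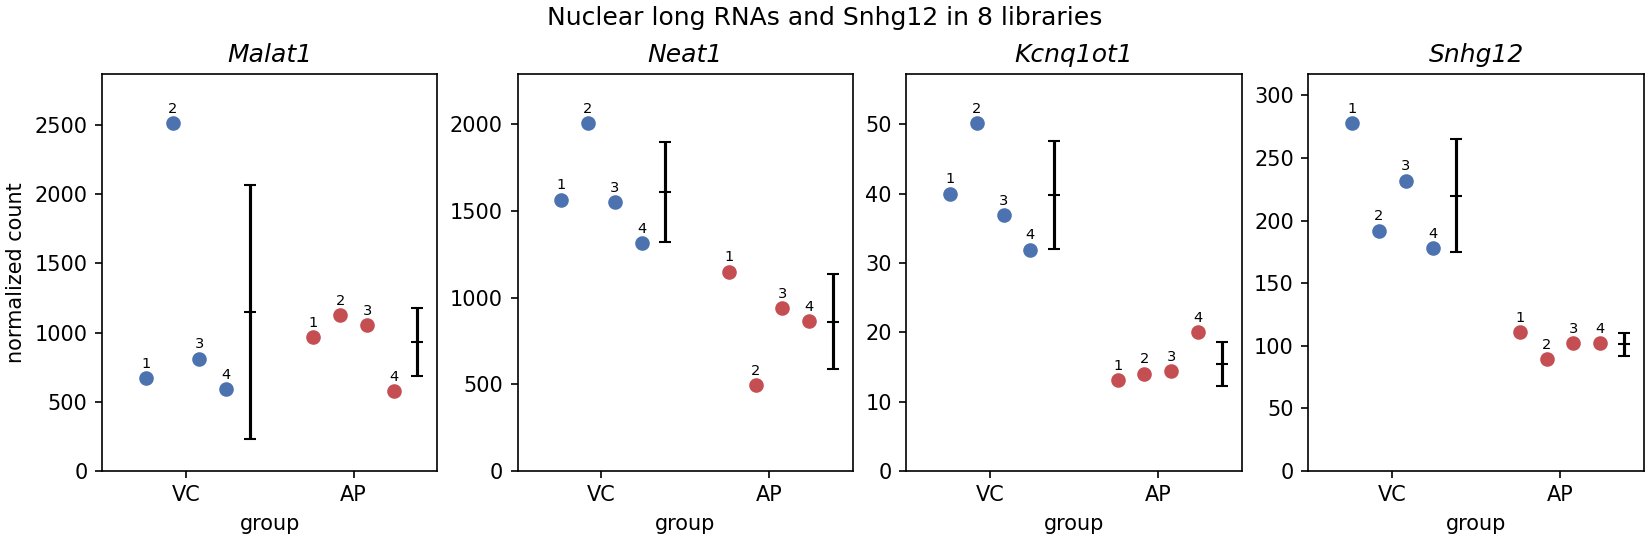
Normalized counts (vertical axes, from 0) of Malat1, Neat1, Kcnq1ot1 and Snhg12 in each library by group (horizontal axis), with the library number over each point and the mean and SD of 4 libraries as black bars. Neat1, Kcnq1ot1 and Snhg12 were lower in every AP library than in every VC library on this scale, while Malat1 overlapped and was set apart in VC library 2 at 2515. Scaled by total reads, log2 fold changes were 0.80 for Malat1, -0.08 for Neat1, -0.48 for Kcnq1ot1 and -0.24 for Snhg12.

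Malat1, the speckle RNA (ENSMUSG00000092341), is a lincRNA gene on the minus strand of chromosome 19 at 5795690 to 5802672 (mm10). It was measured at 668, 2515, 810 and 589 normalized counts in VC libraries 1 to 4 and at 967, 1126, 1052 and 575 in AP libraries 1 to 4. VC library 2 was far above the other 7, AP library 4 was the lowest, and the groups overlapped. The means were 1145 ± 918 in VC and 930 ± 245 in AP (SD, n = 4 each). The log2 fold change of AP over VC was -0.07 with a standard error of 0.40 and an adjusted p of 0.924 in limma, and the exact permutation test over the 70 assignments gave p = 0.943 (two-sided, n = 4 against 4). Without VC library 2 the log2 fold change became 0.40, with a limma adjusted p of 0.286, and it was also above 0 without AP library 4 (0.15), so the direction of the Malat1 difference was not settled.

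Neat1, the paraspeckle RNA (ENSMUSG00000092274), lies 22035 bases from Malat1 on the same strand of chromosome 19, at 5824708 to 5845478. Its values were 1563, 2007, 1551 and 1313 normalized counts in VC libraries 1 to 4 and 1150, 494, 937 and 862 in AP libraries 1 to 4. Every AP library was below every VC library, with the lowest value in AP library 2 and the highest in VC library 2. The means were 1608 ± 290 in VC and 861 ± 273 in AP (SD, n = 4 each). The difference on the log2 scale was -0.95 with a standard error of 0.24 (limma adjusted p = 0.034). The exact permutation p was 0.0286, two-sided, which is the smallest that 4 libraries against 4 can give. The call was close to the threshold: it held without VC library 4 or without AP library 1 but not without any of the other 6 libraries in turn, where limma adjusted p reached 0.0792.

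The 2 main forms of Neat1 share the start of the gene, and reads counted per gene cannot separate them. In GENCODE M21 the short form spans 3004 bases in 2 exons and the long form, which builds the paraspeckle core, is 20771 bases without introns. Their ends differ in what oligo-dT can take hold of, and the last 60 bases of each are shown with the polyadenylation signal AATAAA, where a script found it, in capitals.
Neat1 short form, chr19:5842307-5842366, minus strand: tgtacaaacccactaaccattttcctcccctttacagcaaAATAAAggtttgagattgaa
Neat1 long form, chr19:5824708-5824767, minus strand: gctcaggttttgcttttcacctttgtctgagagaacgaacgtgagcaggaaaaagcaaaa
The signal stood 14 bases before the end of the short form and was not among the last 60 bases of the long form, which closes with 4 A. Of the longest transcripts of 15962 fitted genes, 58.9% held AATAAA in their last 60 bases on the transcribed strand, the only strand searched.

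Malat1 is also known to end without a poly(A) tail, in a folded A-rich stretch. A run of 12 A was found in the 6983-base transcript. It is printed in capitals after the 18 bases before it, and the 30 bases together lie at chr19:5795988-5796017 on the minus strand. The annotated transcript goes on beyond this run, and its last 60 bases hold AATAAA, 16 bases before the end.
Malat1 A run: tggcctttccctagctttAAAAAAAAAAAA
Runs of at least 12 A, a length set to that of Malat1, were found in 10.8% of the longest transcripts of fitted genes. The longest run was 7 A in Neat1, 41 A in Kcnq1ot1 and 12 A in Snhg12. Whether capture at such runs differed between libraries was not tested.

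Kcnq1ot1 (ENSMUSG00000101609) is annotated as a single antisense exon of 93092 bases on chromosome 7, at 143203458 to 143296549 on the minus strand, inside the potassium channel gene Kcnq1. It was measured at 40, 50.2, 36.9 and 31.9 normalized counts in VC libraries 1 to 4 and at 13.1, 14, 14.4 and 20 in AP libraries 1 to 4. The lowest VC library was above the highest AP library. These values rested on 17 to 34 reads per VC library and 18 to 29 per AP library, so the read numbers themselves overlapped and the difference appeared after scaling for depth. The means were 39.8 ± 7.76 in VC and 15.4 ± 3.15 in AP (SD, n = 4 each), with a log2 fold change of -1.31, a standard error of 0.36 and a limma adjusted p of 0.0418 (exact permutation p = 0.0286, two-sided). The call held with VC library 4 left out and was lost with any of the other 7 left out in turn, at limma adjusted p of up to 0.119, and was also lost with no filter on low values (0.0612).

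Kcnq1 lies at 143106362 to 143427042 on the plus strand and overlaps all of Kcnq1ot1. It had 0, 2.96, 13.7 and 7.5 normalized counts in VC libraries 1 to 4 and 17.4, 20.5, 8.47 and 12.9 in AP libraries 1 to 4. The groups overlapped, and VC library 1 had no read (limma log2 fold change 1.68, standard error 0.80, adjusted p = 0.182). Use of strand in counting was not given in the sources used here, so reads of the antisense RNA and reads from introns of Kcnq1 cannot be told apart. Of 8 other genes of the imprinted domain, Kcnq1 among them, none was called in either direction, and their median log2 fold change was 0.62 against 0.06 for all genes. The median rests in part on low genes. In 3 of the 8, with log2 fold changes of 1.25 to 1.68, a library had 3 reads or fewer. Of the 8 genes, 5 were above 0 and 3 below. With total reads 6 of the 8 were called higher (median 1.46), and with upper-quartile scaling 1 was called lower. The most abundant of them per kilobase was Cd81, a membrane protein gene, at 845 ± 80.4 normalized counts in VC and 1006 ± 234 in AP (SD, n = 4 each). Cdkn1c, a cell cycle inhibitor gene that Kcnq1ot1 silences on the paternal chromosome, was at 200, 257, 193 and 377 in VC libraries 1 to 4 and at 222, 101, 85.2 and 117 in AP libraries 1 to 4. AP library 1 was within the VC range and the other 3 AP libraries were below it (limma adjusted p = 0.0601). Cdkn1c was chosen for mention after its values were seen. In 1 of the 8 domain genes, not Cdkn1c, all AP libraries were below all VC libraries (limma log2 fold change -0.59, adjusted p = 0.06).

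Genes beside Neat1 and Kcnq1ot1 were measured as well. Frmd8os lies 144 bases upstream of the start of Neat1, on the opposite strand, and is annotated as antisense. It was lower in AP, at 54.6, 36.9, 56 and 58.1 normalized counts in VC libraries 1 to 4 and 27.6, 19.4, 18.9 and 19.3 in AP libraries 1 to 4 (limma log2 fold change -1.23, standard error 0.33, adjusted p = 0.0403). All AP values were below all VC values, from 25 to 41 reads per VC library and 27 to 38 per AP library. On the lower side of Kcnq1ot1, Trpm5 had 5.13 ± 4.41 in VC and 12.1 ± 4.78 in AP (SD, n = 4 each; limma adjusted p = 0.219), and on the higher side the antisense gene 4933417O13Rik had 0 to 5 reads in each library and was not fitted.

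Snhg12 (ENSMUSG00000086290), the snoRNA host, is a lincRNA gene on the plus strand of chromosome 4 at 132308623 to 132311024. Its values were 278, 192, 232 and 178 normalized counts in VC libraries 1 to 4 and 111, 89, 102 and 102 in AP libraries 1 to 4. Every AP library was below every VC library, and the AP libraries lay closer together than the VC libraries. The means were 220 ± 45 in VC and 101 ± 9.03 in AP (SD, n = 4 each), from 95 to 170 reads per VC library and 142 to 204 per AP library. The log2 fold change was -1.10 with a standard error of 0.20 and a limma adjusted p of 0.0128, and the exact permutation p was 0.0286, two-sided. Snhg12 was called with each of the 8 libraries left out in turn, at limma adjusted p of 0.013 to 0.0453. Scaled by total reads it was not called, at a log2 fold change of -0.24 (limma adjusted p = 0.406).

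GENCODE M21 lists 10 transcripts of Snhg12 and 4 snoRNAs within the gene. Snora16a lay in an intron of 6 of the transcripts, Snora44 of 7, Snora61 of 5 and Snord99 of 6, and each lay within an exon of 2 to 4 other transcripts that keep the surrounding sequence. Reads counted on the gene can therefore come from spliced RNA or from such longer forms, which gene counts cannot separate. The first 3 are of the H/ACA class, which guides pseudouridylation, and Snord99 is of the C/D class, which guides ribose methylation. A C/D and an H/ACA guide of this host are printed to show what the gene carries, with the TGATGA and CTGA boxes of Snord99 and the ACA box of Snora61 in capitals.
Snord99, chr4:132310691-132310764, plus strand: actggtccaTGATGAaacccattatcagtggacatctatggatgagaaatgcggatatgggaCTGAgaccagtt
Snora61, chr4:132310240-132310369, plus strand: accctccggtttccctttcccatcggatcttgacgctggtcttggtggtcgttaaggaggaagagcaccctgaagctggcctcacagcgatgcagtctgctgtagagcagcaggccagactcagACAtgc
On the RNA strand, TGATGA in the first 20 bases together with CTGA in the last 12 was found in 66.3% of 98 annotated Snord transcripts, and ACA just before the last 3 bases in 83.3% of 42 Snora transcripts. The snoRNAs themselves were not analysed here.

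**Figure D2:**
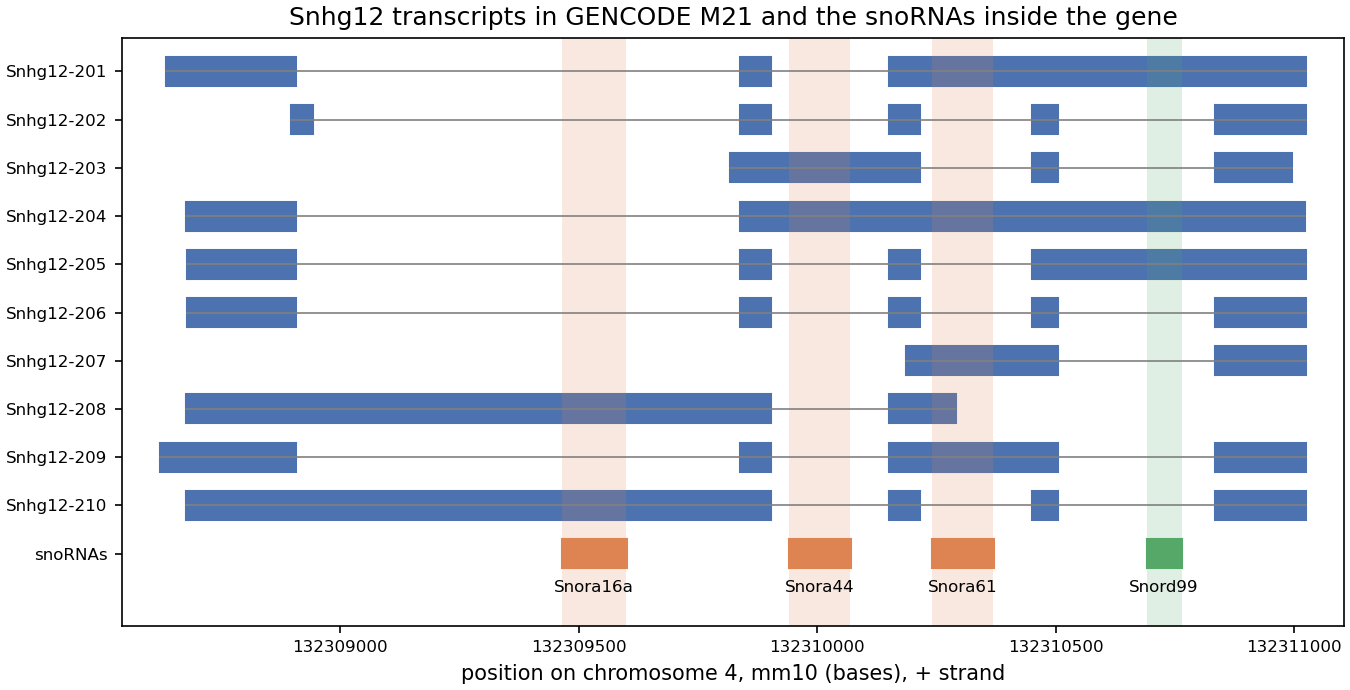
Map of the 10 annotated Snhg12 transcripts on the plus strand of chromosome 4 (horizontal axis, position in bases, mm10), with exons as blue boxes, introns as lines and the 4 snoRNAs as orange (H/ACA) and green (C/D) boxes whose shading runs through the transcripts. Snora44 lies in an intron of 7 transcripts and Snord99 of 6.

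Ribosomal protein genes and some snoRNA hosts are known to start their RNAs with an unbroken run of pyrimidines. RefSeq promoters (GRCm38.p6, 250 bases before to 50 after the start) were matched for 3 of the 4 genes, Malat1, Kcnq1ot1 and Snhg12. A C followed by at least 5 further C or T, beginning within 5 bases of the annotated start on the gene's strand, was found in Snhg12 and not in the windows of Malat1 and Kcnq1ot1. The same pattern was in 10.2% of all 32851 promoters of that length and in 26 of 58 cytosolic ribosomal protein genes with a promoter (44.8%). It was in 1 of 13 protein-coding snoRNA hosts (7.69%) and 2 of 14 other snoRNA host long RNAs (14.3%). Counted the same way, with any promoter of a gene, it was in 11.9% of 27025 genes. Most ribosomal protein genes did not show the pattern either, so its absence cannot show that a host starts without pyrimidines. The Snhg12 promoter is printed with this run in capitals, since the ribosomal protein genes form the cytoplasmic comparison below.
Snhg12 promoter, chr4:132308428-132308727, plus strand: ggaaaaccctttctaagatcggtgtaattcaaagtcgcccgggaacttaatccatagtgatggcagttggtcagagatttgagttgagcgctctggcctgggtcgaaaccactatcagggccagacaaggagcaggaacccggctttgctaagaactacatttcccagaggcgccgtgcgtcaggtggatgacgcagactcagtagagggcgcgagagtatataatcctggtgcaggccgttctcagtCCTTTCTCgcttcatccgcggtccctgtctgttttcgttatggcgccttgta

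Trnau1ap, a gene for a selenocysteine tRNA-associated protein 738 bases beyond Snhg12, had 283 ± 30.3 normalized counts in VC and 188 ± 25.7 in AP (SD, n = 4 each; limma adjusted p = 0.0505), with all AP libraries below all VC libraries. Rab42, 5237 bases before Snhg12, had 0 to 4 reads per VC library and 0 to 9 per AP library, too few to show a difference (limma adjusted p = 0.984).

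Levels of different genes were compared per kilobase of annotated exon. In VC, Malat1 was at 164 ± 131 normalized counts per kilobase, Snhg12 at 91.7 ± 18.7, Neat1 at 77.4 ± 13.9 and Kcnq1ot1 at 0.427 ± 0.0833 (SD, n = 4 each). Within each VC library Malat1 was above Neat1. Snhg12 was above Malat1 in VC library 1 and below it in the other 3, and above Neat1 in all but VC library 2. The spreads of Malat1, Snhg12 and Neat1 over the VC libraries overlapped, and Kcnq1ot1 was far below them. In AP, Malat1 was at 133 ± 35.1 per kilobase, Snhg12 at 42 ± 3.76, Neat1 at 41.4 ± 13.2 and Kcnq1ot1 at 0.165 ± 0.0338 (SD, n = 4 each). There Malat1, at 82.4 to 161, was above Snhg12 and Neat1 in every library, and the latter did not differ beyond their spread, with Neat1 the higher in AP libraries 1 and 3. Since Neat1 was counted over the length of its long form, its level per kilobase is too low if most reads came from the short form.

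Other long RNAs of both kinds were measured for comparison. Of 8 other snoRNA host long RNAs that passed the filter, 2 fell, none rose, and 6 had a log2 fold change under 0, with a median of -0.54 that became 0.26 with total reads. None was called with total reads and 1 was lower with the length trend removed. Epb41l4aos, the most abundant of them per kilobase, was at 262, 151, 182 and 201 normalized counts in VC libraries 1 to 4 and at 99.4, 80.9, 119 and 82.3 in AP libraries 1 to 4 (limma log2 fold change -1.04, standard error 0.23, adjusted p = 0.0225). Snhg20 was at 115, 120, 171 and 73.1 in VC libraries 1 to 4 and at 66.7, 33.4, 36.4 and 42.9 in AP libraries 1 to 4 (limma log2 fold change -1.38, standard error 0.33, adjusted p = 0.0271). In both genes all AP libraries were below all VC libraries. Of 9 other nuclear long RNAs, none was called by limma in either direction, and 6 were under 0, with a median of -0.34 that became 0.48 with total reads, where 2 were called higher. Tug1, the most abundant of these per kilobase, was at 311, 362, 493 and 272 in VC libraries 1 to 4 and at 417, 492, 568 and 480 in AP libraries 1 to 4, and the groups overlapped (limma adjusted p = 0.134).

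Among all lincRNA genes fitted, 17 of 311 fell and 4 rose, and the median log2 fold change was -0.10. Among all antisense genes, 21 of 1060 fell and 80 rose, with a median of 0.49. Protein-coding genes had a median of 0.04, with 601 of 14563 lower and 926 higher. The class of Kcnq1ot1, antisense, thus had 1.98% of genes called lower, and the class of Malat1, Neat1 and Snhg12 had 5.47%. These shares rest in part on low genes: of lincRNA and antisense genes together, 2.77% were lower and 6.13% higher (median 0.32), while of the 348 with a mean of at least 50 normalized counts, 6.9% were lower and 10.1% higher (median 0.08).

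The nuclear bodies built on these RNAs also hold proteins. Of 16 paraspeckle protein genes, Hnrnph3 and Taf15 fell, none rose and the median log2 fold change was -0.19 (0.68 with total reads, below the 0.90 of all genes, where 12 were called higher and none lower). Hnrnph3, an RNA-binding protein gene, went from 345 ± 62.4 normalized counts in VC to 166 ± 27.6 in AP (SD, n = 4 each; limma log2 fold change -1.05, adjusted p = 0.0127), and Taf15 from 775 ± 50.5 to 481 ± 116 (SD, n = 4 each; limma log2 fold change -0.72, adjusted p = 0.0355). Hnrnpa1 was the most abundant per kilobase and overlapped between groups (limma adjusted p = 0.454). Of 16 nuclear speckle protein genes, Son, a speckle scaffold gene, rose, Srsf7, a splicing factor gene, fell, and the median was -0.11 (0.76 with total reads, where 13 were called higher and none lower). With the length trend removed none of the 16 was called, and with total reads without mitochondrial genes 1 was higher and none lower. Son was at 784 ± 164 in VC and 1302 ± 184 in AP (limma adjusted p = 0.0324), Srsf7 at 846 ± 152 and 572 ± 23.4 (adjusted p = 0.0455), and the most abundant gene, Srsf2, overlapped (adjusted p = 0.652; SD, n = 4 each).

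Genes whose messenger RNAs are known to be held in part in the nucleus by detained introns were measured as well. Gene counts do not separate that part from spliced RNA in the cytoplasm. Of 20 such genes, none was called in either direction by limma, 15 were under 0 and the median was -0.18 (0.68 with total reads). With total reads 13 were called higher, beside 8657 of all 15964 genes, and with the length trend removed 2 were called lower, beside 516 of all genes. Ddx5, an RNA helicase gene and the most abundant per kilobase, was at 3440, 3380, 3390 and 2768 normalized counts in VC libraries 1 to 4 and at 3634, 3441, 4504 and 3980 in AP libraries 1 to 4. Every AP library was above every VC library, though only just between VC library 1 and AP library 2 (limma adjusted p = 0.308). In 1 gene of the list the separation ran the other way, with all AP libraries below all VC libraries (limma log2 fold change -0.59, adjusted p = 0.0775). Without mitochondrial reads, the summed share of reads of the list was 0.231% to 0.36% in VC and 0.248% to 0.315% in AP, and the groups overlapped. Of all reads it was 0.11% to 0.208% in VC and 0.222% to 0.298% in AP, higher in AP with no overlap.

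On the snoRNA side, 2 of 10 snoRNP protein genes fell and none rose (median -0.29, or 0.58 with total reads, where 6 were called higher and none lower). Nop56, a core protein of C/D snoRNPs and itself a snoRNA host, had 783 ± 117 normalized counts in VC and 464 ± 89.4 in AP (SD, n = 4 each; limma log2 fold change -0.76, adjusted p = 0.0257). Gar1, an H/ACA protein gene, had 290 ± 41.6 and 182 ± 30.9 (SD, n = 4 each; limma adjusted p = 0.0451), and Nhp2, the most abundant, overlapped (adjusted p = 0.19). Of 15 protein-coding snoRNA hosts, Nop56 and Ppan fell and none rose, with a median of -0.33 (0.55 with total reads, where 10 were called higher and none lower). In each of these lists 1 gene was lower with total reads without mitochondrial genes. Ppan, a ribosome assembly gene, had 372 ± 96.9 in VC and 207 ± 26.7 in AP (SD, n = 4 each; limma adjusted p = 0.0353), and Tpt1, the most abundant, overlapped (adjusted p = 0.247).

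Of 10 genes of nonsense-mediated decay, the pathway that degrades spliced host RNAs, Smg1 and Smg8 rose and Upf3a fell, with a median of 0.15 (-0.16 with the length trend removed, where 1 was higher and 1 lower, and 1.02 with total reads, where 7 were higher and none lower). Smg1, the kinase gene of the pathway, was at 315, 387, 533 and 300 normalized counts in VC libraries 1 to 4 and at 603, 934, 821 and 751 in AP libraries 1 to 4 (limma log2 fold change 1.04, standard error 0.21, adjusted p = 0.0167). All AP libraries were above all VC libraries. Upf3a had 476 ± 112 in VC and 251 ± 12.4 in AP (limma log2 fold change -0.89, adjusted p = 0.0175), and Smg8, a regulator of the kinase, 39.8 ± 11.6 and 90.8 ± 19 (limma log2 fold change 1.19, adjusted p = 0.0333; SD, n = 4 each). Upf1, the most abundant, overlapped (adjusted p = 0.389).

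Cytosolic ribosomal protein genes stood for cytoplasmic RNA. Of 79, 8 fell, none rose, all 79 were under 0, and the median log2 fold change was -0.54, which became 0.34 with total reads, where 19 of 79 were called higher, a smaller share than the 8657 of 15964 among all genes, and none lower. With the length trend removed, 2 of these short genes were called lower, at a median of -0.33, and 14 were lower with upper-quartile scaling, 12 with total reads without mitochondrial genes and 9 with TMM scaling. Rplp1, the most abundant per kilobase, had 35907, 16297, 16649 and 15748 normalized counts in VC libraries 1 to 4 and 11729, 12107, 10518 and 14780 in AP libraries 1 to 4 (limma adjusted p = 0.158). VC library 1 was above all others, and no AP library reached the VC range. The 4 called with the smallest p were Rpl28, Rpl38, Rps21 and Rplp2, at log2 fold changes of -0.96, -1.06, -0.96 and -1.10 (limma adjusted p = 0.0208 to 0.0297).

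As a share of reads without mitochondrial genes, the 3 nuclear long RNAs together took 0.0376%, 0.0822%, 0.0468% and 0.0335% of VC libraries 1 to 4 and 0.0388%, 0.0303%, 0.038% and 0.0256% of AP libraries 1 to 4. The groups overlapped, and VC library 2, where Malat1 was high, was above the rest. Ribosomal protein genes took 17.4%, 11.3%, 11.7% and 11.1% of the same reads in VC and 8.49%, 8.32%, 8.37% and 10.4% in AP, with no overlap. Snhg12 took 0.00308% to 0.00461% in VC and 0.00165% to 0.00202% in AP, again with no overlap. The 10 other nuclear long RNAs took 0.00769% to 0.0132% in VC and 0.0108% to 0.0133% in AP, which overlapped. Of all reads, mitochondrial ones included, the 3 nuclear long RNAs took 0.016% to 0.0453% in VC and 0.023% to 0.0359% in AP, and Snhg12 0.00147% to 0.00262% in VC and 0.00152% to 0.00182% in AP, both with overlap. Ribosomal protein genes took 5.3% to 7.95% of all reads in VC and 7.54% to 9.31% in AP, with overlap and mostly higher values in AP. The other nuclear long RNAs took 0.00367% to 0.00765% of all reads in VC and 0.00973% to 0.0126% in AP, higher in AP with no overlap. The share of nuclear RNA itself was not measured, and whether nuclear against cytoplasmic content differed was not tested.

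Mitochondrially encoded genes also differed. Of 12 fitted, 10 fell and none rose, with a median log2 fold change of -3.38 (-2.50 with total reads). All 12 were called lower with total reads, and also with total reads without mitochondrial genes. The most abundant, mt-Co1, had 1564033 to 2888101 normalized counts in VC and 123193 to 284397 in AP. Every AP library was below every VC library, at a log2 fold change of -3.37. On the deposited scale mt-Co1 was not called (limma adjusted p = 0.18, standard error 1.60). There mt-Co2, mt-Atp6, mt-Nd4l and mt-Nd3 were called at log2 fold changes of -2.91, -2.80, -3.64 and -3.18 (limma adjusted p = 0.000918 to 0.000973).

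Fold changes also followed transcript length, and the 4 genes differ in length from 1538 to 93092 bases in their longest transcripts. The median log2 fold change was -0.23 over 2786 genes with a longest transcript of over 1000 to 2000 bases, the class of Snhg12, 0.25 over 4706 genes of over 4000 to 8000 bases, the class of Malat1, and 0.50 over 834 genes above 8000 bases, the class of Neat1 and Kcnq1ot1. In these classes 6.89%, 1.81% and 1.32% of genes were called lower. Neat1 was classed and corrected by the length of its long form. Its short form of 3004 bases would fall among genes of over 2000 to 4000 bases, where the median was -0.01 and 3.76% were called lower. With the length trend removed from each library, log2 fold changes were -0.92 for Snhg12 (limma adjusted p = 0.0273), -1.52 for Neat1 (0.0148), -0.46 for Malat1 (0.479) and -1.06 for Kcnq1ot1 (0.216). Neat1 and Snhg12 were called with and without the trend, and Kcnq1ot1, which at 93092 bases has few genes near its length, was called only with it.

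**Figure D3:**
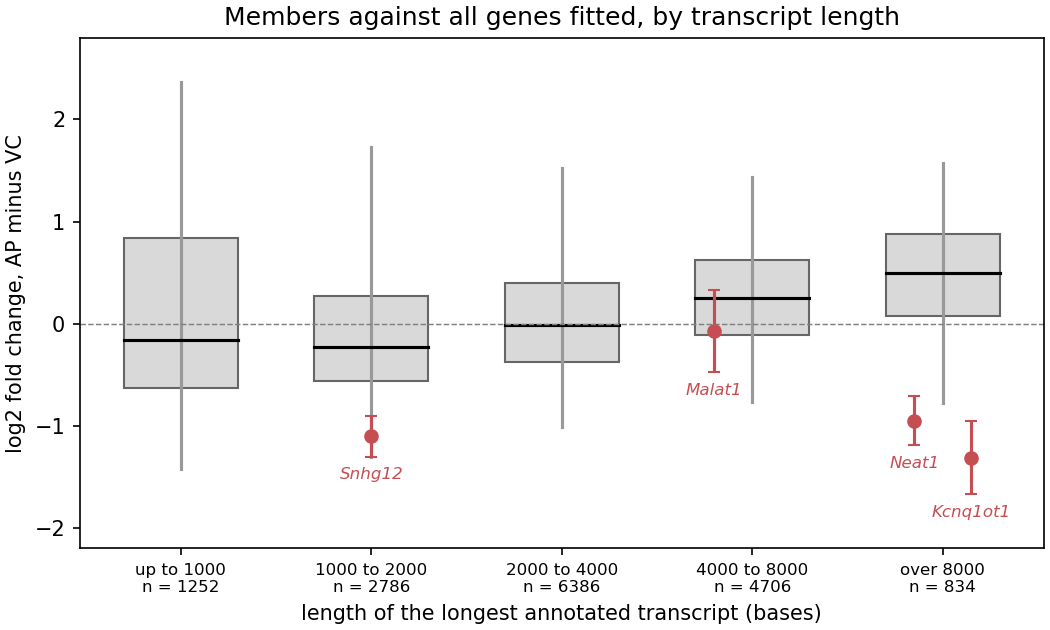
Log2 fold change of AP minus VC (vertical axis) by length of the longest annotated transcript in bases (horizontal axis) for the genes fitted, with boxes from the 25th to the 75th percentile, black lines at the median and grey lines from the 5th to the 95th percentile. Red points with standard errors are the 4 genes, all below the median of their length class, at -1.10 for Snhg12, -0.95 for Neat1, -1.31 for Kcnq1ot1 and -0.07 for Malat1 (-0.24, -0.08, -0.48 and 0.80 with total reads, which moves the median of all genes to 0.90). Neat1 is placed by the length of its long form.

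The genes whose pattern over the 8 libraries was nearest to each member were found by the root mean square difference of centred log2 values among genes with a mean of at least 50 normalized counts (11256 genes, or 11257 for Kcnq1ot1). Nearest to Malat1 were Cd274, Awat2 and Lpcat3 (0.26, 0.31 and 0.32 log2 units), and all 3 were likewise highest in VC library 2. Awat2, an acyltransferase gene of wax ester synthesis, had 102, 217, 96.9 and 91.9 normalized counts in VC libraries 1 to 4 and 129, 111, 97.7 and 80.1 in AP libraries 1 to 4. Nearest to Neat1 were Ndc80, Dnajc17 and Hemk1, each at 0.21 log2 units, and all 3 were lowest in AP library 2. For Kcnq1ot1 they were Anp32b, Slc15a3 and Pfdn2 (0.21, 0.23 and 0.25), and for Snhg12 they were Xrcc1, Igip and Mxd3 (0.08, 0.09 and 0.10). Xrcc1, a DNA repair gene, had 655, 430, 509 and 369 in VC libraries 1 to 4 and 249, 223, 241 and 243 in AP libraries 1 to 4, a tight AP group under a wider VC group like that of Snhg12.

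Markers of cell types differed between the groups as well, and their part in the differences of the 4 genes was not tested. Of 7 suprabasal epidermis markers, 6 rose and none fell (5 with the length trend removed, and 7 with total reads at a median log2 fold change of 3.87), and their summed normalized counts were 4633, 11266, 7332 and 4849 in VC libraries 1 to 4 and 34926, 35995, 93269 and 142804 in AP libraries 1 to 4. The groups did not overlap. Krt10, the most abundant, had 2376 ± 1207 in VC and 38536 ± 27358 in AP (SD, n = 4 each; limma adjusted p = 0.00367), and no marker was at 0 in any library, although interfollicular epidermis had been removed. Of 4 endothelium markers, Pecam1 and Cdh5 rose and none fell (median 1.48). With the length trend removed 1 was called higher, and with total reads 4 were (median 2.35). TMM scaling and total reads without mitochondrial genes each gave 3 higher. The sums were 664, 531, 1140 and 1159 in VC and 1906, 4795, 1775 and 1784 in AP, with no overlap. Pecam1, the most abundant, was at 416 ± 106 in VC and 1214 ± 687 in AP (SD, n = 4 each; limma adjusted p = 0.0198).

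Of 4 melanocyte markers, Pmel, Mlana and Tyr fell and none rose (median -1.36). With the length trend removed 2 were called lower, and 1 with total reads (median -0.50) or with total reads without mitochondrial genes (-1.32). The sums were 3582, 2533, 3214 and 1148 in VC and 966, 1117, 1495 and 859 in AP. VC library 4 was within the AP range. Pmel, the most abundant, had 1005 ± 471 in VC and 363 ± 118 in AP (SD, n = 4 each; limma adjusted p = 0.0462). Skeletal muscle markers, of which none of 7 was called by limma, had a median of -1.81 and sums of 51541, 72779, 36780 and 41586 in VC and 66299, 9497, 5692 and 12247 in AP, so that AP library 1 was within the VC range and the other 3 were below it.

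The tissue itself was seen in its markers. Dermal fibroblast markers, led by Col1a1, summed to 81326 to 222688 in VC and 97846 to 254001 in AP, and hair follicle keratinocyte markers, led by Krt14, to 28225 to 84655 and 56131 to 143171. None of the 7 genes of either list was called by limma, while with total reads 6 of 7 in each were called higher (medians 1.28 and 1.15). Adipocyte and leukocyte markers had none called of 5 and 6, and red blood cell markers had 1 of 5 higher (Hbb-bs, limma adjusted p = 0.0231). With total reads 2, 3 and 3 of these were called higher. Of 8 glucocorticoid receptor target genes, only Dusp1, a phosphatase gene, was called on the deposited scale, where the median was 0.42, against 6 called higher with total reads (median 1.29). Dusp1 was at 327 ± 138 in VC and 1378 ± 378 in AP (SD, n = 4 each; limma log2 fold change 2.12, adjusted p = 0.00435). Rmrp, an RNA without a poly(A) tail, had 0 to 6 reads per library and was not fitted.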

How the data were processed

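The signal used here was deposited by the authors as normalized counts for 18770 genes in 8 libraries, each value a read count divided by 1 size factor per library. The submitters' processing notes name STAR, HTSeq, DESeq2 and mm10, while the study's methods name featureCounts for counting. Columns with the authors' own mean, fold change, test statistic and p-values were not used. All 150160 values were whole multiples of 1 step per library (100%, within 0.1 read), so reads were recovered. Library kit and use of strand were not given in the sources used here.

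The main test was limma 3.58.1 in R 4.3.3 with an intensity trend on log2(value + 1), over the 15964 genes that reached 3 normalized counts in 4 or more libraries, adjusted by Benjamini-Hochberg and called under 0.05. Fold changes are on that scale, which understates those of low genes. Single genes were also compared by an exact permutation test over 70 assignments, whose smallest two-sided p is 0.0286. On the recovered reads, edgeR 4.0.16 (quasi-likelihood, TMM) called 1715 genes and DESeq2 1.42.0 called 3061, against 1650 by limma. Other alternatives were limma-voom, other scalings, pseudocounts, filters, a length correction (loess, span 0.3, genes with a mean of at least 50) and each library left out. Steps were run in R or Python 3.11.15. The limma, limma-voom, edgeR and DESeq2 fits and the recovery of reads were tested on simulated data, and the other steps were not. The test of the fits was narrowed to large simulated differences after it had stopped on smaller ones, part of which every tool missed, so a gene that is not called can still differ.

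Coordinates and lengths are from GENCODE M21, and promoters from RefSeq. The genes and the 25 gene lists were chosen with earlier results of these data known. Named genes are the members, the most abundant gene per kilobase and up to 4 called genes with the smallest p of each list, neighbouring genes, and the 3 genes nearest in pattern to a member. That rule covered Malat1, Neat1 and Gas5, and the nearest genes of Kcnq1ot1 and Snhg12 were added after the data were seen. The length and gene classes and the sequence windows, boxes, signals and run lengths searched were also chosen after the data were seen. Mice were separate animals, 4 per group.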

Additional observations from a re-analysis of the deposited data

Results flagged for a closer look

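Malat1 in VC library 2, at 2515 normalized counts from 1702 reads, stood apart from the other 3 VC libraries, which were at 589 to 810. Its gap to the nearest of them was 0.885 of the whole VC range, past the 5% limit of the Dixon test for 4 values. The 8 groups of values looked at were those of 4 genes in VC and AP, and chance alone marks about 1 in 20 such groups if values are normally spread. Neat1 and Kcnq1ot1 were also highest in VC library 2, at 2007 and 50.2, while Snhg12 was not. Without that library Malat1 had a log2 fold change of 0.40 with a standard error of 0.24 (limma adjusted p = 0.286). The cause was not tested.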

How the results depend on the processing

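Snhg12 was lower in AP and called under 20 of 21 alternatives, Neat1 was lower in all 21 and called in 13, and Kcnq1ot1 was lower in all 21 and called in 11. Malat1 was never called. Its log2 fold change was 0.80 with total reads (limma adjusted p = 0.146), where it was still -0.10 relative to the median gene, and with single libraries left out it ranged from -0.30 to 0.40, above 0 without VC library 2 (0.40) and without AP library 4 (0.15). The number of the 4 genes called lower was 3, and 0 with total reads; with single libraries left out it was 1 to 3.

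Neat1 also lost its call without the intensity trend (limma adjusted p = 0.0874), and Kcnq1ot1 with no filter (0.0612) and with the length trend removed (0.216). Over all genes, 1011 were called higher and 639 lower, against 1667 and 1394 by DESeq2, 376 and 216 without the trend, and 8657 and 70 with total reads, which follows from the shift of the median gene by that scaling. With the length trend removed 580 were higher. Leave-one-out counts were 209 to 1082 higher and 94 to 817 lower. Other causes were not tested.

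Depth limits Kcnq1ot1, with 17 to 34 reads per library, and Kcnq1 and Trpm5 beside it. Mitochondrial share and cell type markers differed with treatment and cannot be told apart from it in 4 mice per group. Fold changes followed transcript length, and with that trend removed Snhg12 and Neat1 kept their calls, with Neat1 taken at the length of its long form. Gene counts separate neither isoforms nor, without strand, antisense partners, and a share of polyadenylated reads is not a share of nuclear RNA.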

Other observations

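Ratios of reads within a library need no scaling between libraries. Neat1 had 2.34, 0.798, 1.92 and 2.23 reads per Malat1 read in VC libraries 1 to 4 and 1.19, 0.438, 0.891 and 1.5 in AP libraries 1 to 4. The ratio was lowest in library 2 of each group, and the groups overlapped. Malat1 had 16.7, 50.1, 22 and 18.5 reads per Kcnq1ot1 read in VC libraries 1 to 4 and 74.1, 80.3, 72.8 and 28.7 in AP libraries 1 to 4. AP library 4 was within the VC range and the other 3 AP libraries were above it.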
